A study of Mus musculus with 12 samples.

Results

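The subject is a set of 38 genes of the peroxisome proliferator-activated receptor (PPAR) pathway and of fatty acid oxidation, described in colonic epithelium of mice with and without an intestinal knockout of Ehf. Ehf encodes a transcription factor of the ETS family that is made in epithelial cells. The genes were chosen by name, as PPAR factors, their coactivators, known targets and oxidation enzymes. The rule itself uses no measured value, but earlier results of these data were known when the genes were chosen. All 38 symbols were among the 55304 in the files, and 36 of them were among the 15743 genes with enough counts to be tested.

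RNA came from colonic epithelial cells of 12 C57BL/6 mice aged 6 weeks, released from the opened colon with EDTA, with 4 mice per group. Control-OIL mice were labelled wild-type, carried source names starting with EVCER and were given sunflower oil. EHF IKO mice had the same source prefix, were labelled as intestinal Ehf knockouts and were given tamoxifen. Control-TMX mice were labelled wild-type, came from the VilCreER source and were given tamoxifen; this line carries Cre fused to an oestrogen receptor that tamoxifen switches on, driven by the Villin promoter, which is active in the epithelium of both small and large intestine. EHF IKO and Control-TMX thus share tamoxifen and differ in source line, and EHF IKO and Control-OIL share the source prefix and differ in tamoxifen. The labels do not state the recombined allele of the EVCER mice, nor whether mice were littermates.

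The PPARs are nuclear receptors that bind fatty acids and their derivatives, pair with a retinoid X receptor, and act on genes of lipid uptake, activation and oxidation. Fatty acids enter mitochondria as carnitine esters and are shortened there by repeated cycles of dehydrogenation, hydration, dehydrogenation and cleavage, while very long chains are first shortened in peroxisomes. Colonocytes are known for their use of butyrate, a bacterial short-chain fatty acid, as a fuel.

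Depth ran from 7421411 to 10344161 counts per library, and genes varied between mice of 1 group by a common coefficient of 18.3% beyond counting error. Ehf itself was counted at 385 to 481 CPM in Control-OIL, 326 to 375 in Control-TMX and 309 to 371 in EHF IKO, where CPM is the count scaled to a common library total with TMM factors. EHF IKO differed from Control-OIL by a log2 value of -0.33 ± 0.11 (SE; edgeR adjusted p = 0.159), and from Control-TMX by one of -0.02 ± 0.11 (adjusted p = 0.972). The counts are sums over all exons and the deleted exons are not named in the labels, so these values do not check the deletion. Markers of differentiated colonocytes summed to 9816 to 16380 CPM per library, stromal markers to 423 to 1261 and adipocyte markers to 10.3 to 27.6. In EHF IKO replicate 2, 7 genes that were each over 20 times higher than in any other library took 10.3% of the counts, and no other library had such a gene. That library also had a count in 36109 genes, against 23588 to 25966 in the others. The part of this in its values for weakly counted genes was not tested. Mitochondrial genes took 10.7% to 26.3% of the counts. Xist and Y-linked genes separated replicates 1 and 2 from replicates 3 and 4 in every group. In bulk RNA, fewer cells of a type and less RNA per cell cannot be told apart.

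Levels of the 38 genes ranged from abundant fuel enzymes to genes with almost no reads. Per kilobase of exon, the scale used to compare genes, Fabp2, the intestinal fatty acid binding protein, was highest with a mean of 109.4 CPM per kb over the 12 libraries. Acads, the dehydrogenase of short-chain acyl-CoA such as that of butyrate, followed at 62.5 CPM per kb. Next came Acaa2, a thiolase that cleaves the shortened chain, at 46.9 CPM per kb, and Acadl, a long-chain dehydrogenase, at 41.2 CPM per kb. Cpt1a, which makes the carnitine esters that enter mitochondria, was at 39.4 CPM per kb.

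Among the factors, Ppargc1b (25.9 CPM per kb), Ppard (24.9) and Pparg (23.0) stood close together, and their levels overlapped across libraries. Ppara, at 7.30 CPM per kb, and Ppargc1a, at 6.81, formed a lower pair. Ppara is the receptor best known from liver, Ppard is widely expressed, Pparg is best known from fat and is also made in colonocytes, and Ppargc1a and Ppargc1b encode coactivators of mitochondrial genes.

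The lowest levels were those of Cd36, a fatty acid translocase, at 0.510 CPM per kb, and of Cyp4a10, which hydroxylates the far end of fatty acids, at 0.0271 CPM per kb. Cyp4a10 had no count in Control-OIL, which allows up to 0.0878 CPM over that group, 3 counts over Control-TMX and 3 counts over EHF IKO. Fabp1, the liver-type binding protein, had 11 counts over Control-OIL, 9 over Control-TMX and 23 over EHF IKO, and neither gene was tested. Cd36 was at 1.54, 1.11, 2.04 and 1.28 CPM in Control-OIL 1 to 4, at 2.64, 1.24, 1.80 and 0.935 in Control-TMX, and at 2.45, 4.42, 1.73 and 0.806 in EHF IKO, so its groups overlapped. The limit given for Cyp4a10 in Control-OIL covers counting error only. The intervals of fitted differences given below come from the edgeR fit and also take in the spread between mice.

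**Figure D1:**
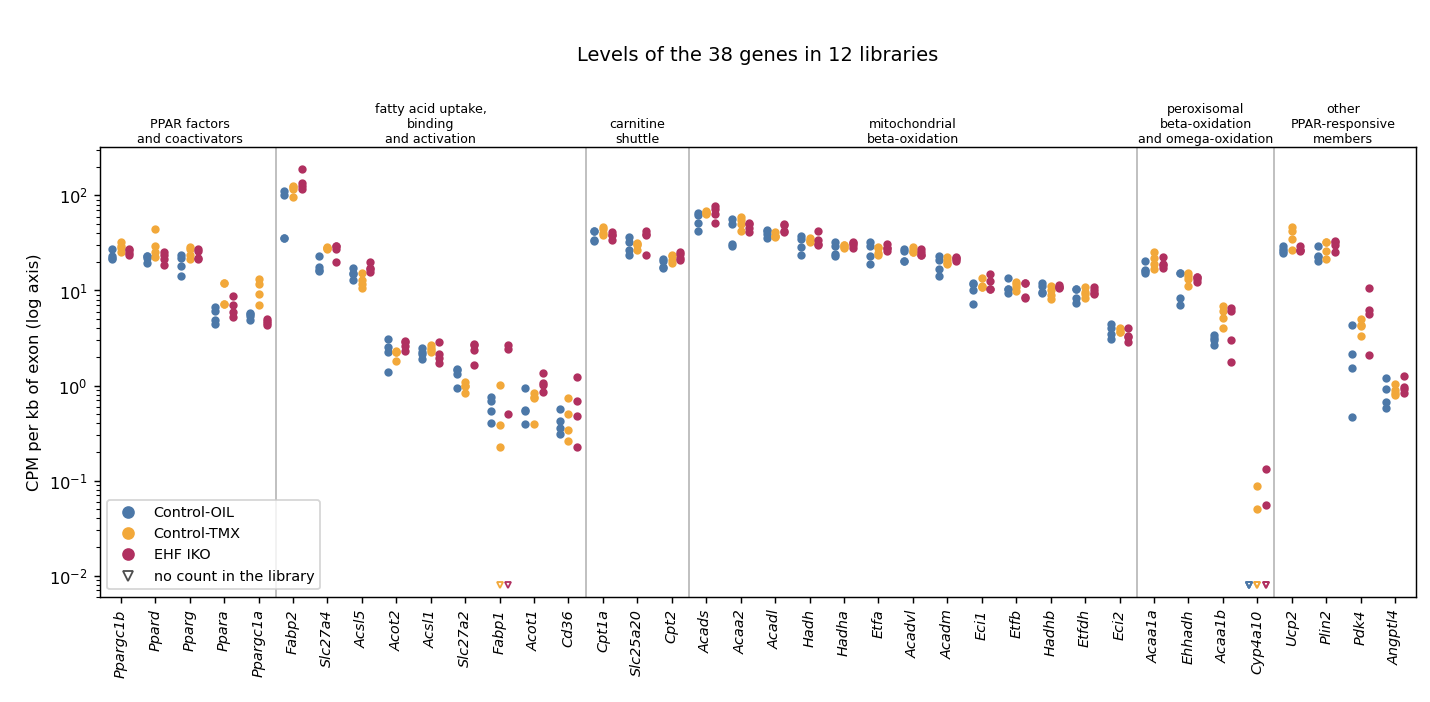
Level of each of the 38 genes in CPM per kb of exon (vertical log axis) in each of 12 libraries, grouped by role; colours are the 3 groups and open triangles mark libraries with no count. Fabp2 is highest (mean 109.4 CPM per kb) and Cyp4a10 lowest (mean 0.0271), and the 13 mitochondrial enzymes lie between 3.65 (Eci2) and 62.5 (Acads).

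The first question was which of these genes differed between EHF IKO and each control. Slc27a2 was the 1 gene of the set called against both controls, and Ppargc1a was called against Control-TMX but not Control-OIL. Both comparisons use the same EHF IKO libraries, and each comparison with Control-TMX shares those libraries with the comparison of the controls, so the values below are given side by side and not as repeats of each other.

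Against Control-OIL, 1 of the 36 tested genes passed an edgeR adjusted p of 0.05, beside 1.68% of all genes tested. Against Control-TMX 2 of 36 passed, beside 0.800% of all genes, and against the mean of both controls 2 of 36, beside 1.72%. Between Control-TMX and Control-OIL 1 of 36 passed, beside 0.0826% of all genes. The groups of 4 libraries did not overlap for 2 of 36 genes against Control-OIL (6.54% of all genes), for 4 of 36 against Control-TMX (7.18%), for 1 of 36 against all 8 controls (2.40%) and for 4 of 36 between the controls (6.88%). These counts are small, and most of the set did not differ between groups by more than the tests could call.

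Slc27a2 encodes a fatty acid transport protein that also activates very long chains. Its level was 5.59, 3.54, 4.97 and 5.43 CPM in Control-OIL 1 to 4, 3.11, 4.08, 3.71 and 3.74 in Control-TMX 1 to 4, and 10.02, 6.21, 8.91 and 10.2 in EHF IKO 1 to 4. All 4 EHF IKO libraries were above all 8 controls, and EHF IKO 2 was the nearest to them. Slc27a2 rose by 1.27 ± 0.21 (log2, SE; 95% interval 0.82 to 1.71) against Control-TMX (edgeR adjusted p = 0.00839) and by 0.86 ± 0.20 (0.43 to 1.29) against Control-OIL (adjusted p = 0.0445). Against the mean of both controls it rose by 1.06 ± 0.17, which is 2.09-fold (adjusted p = 0.00454). The controls differed by -0.41 ± 0.22 (adjusted p = 0.447).

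The gene lies on chromosome 2 at 126552407 to 126588243 on the plus strand (GRCm38), and no other gene of the annotation shares its exons. It rests on few reads, with 166, 128 and 274 counts over Control-OIL, Control-TMX and EHF IKO. The call against Control-OIL was lost in 18 of 25 alternatives, with the log2 value between 0.73 and 0.99 in all 25; of the 12 fits that left out 1 library, it held only in that without EHF IKO replicate 2. The stromal marker score, the mean log2 level of 16 collagen and other matrix-cell genes relative to their mean over libraries, averaged -0.37 ± 0.12 (SD) over Control-OIL, 0.11 ± 0.29 over Control-TMX and 0.25 ± 0.34 over EHF IKO. With that score as a covariate, Slc27a2 was 0.76 higher against Control-OIL (adjusted p = 0.722), 1.24 higher against Control-TMX (adjusted p = 0.0245) and 1.00 higher against both (adjusted p = 0.121); in the fit against Control-OIL the genes called over the whole table went from 265 to 15.

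Ppargc1a encodes the coactivator of PPARs and other nuclear receptors that is known for driving mitochondrial biogenesis. It was at 32.4, 37.6, 37.8 and 35.5 CPM in Control-OIL 1 to 4, at 87.0, 77.99, 60.5 and 46.7 in Control-TMX, and at 31.7, 33.0, 28.3 and 29.96 in EHF IKO. Control-TMX was the group that stood apart: its lowest library was above the highest of the other two groups, while EHF IKO and Control-OIL overlapped. Ppargc1a was lower in EHF IKO than in Control-TMX by 1.14 on the log2 scale, as a log2 fold change of -1.14 ± 0.16 (edgeR adjusted p = 0.00202). Between the controls it was higher in Control-TMX by 0.92 ± 0.15 (adjusted p = 0.0413). Against Control-OIL the EHF IKO value was -0.22 ± 0.16, with a 95% interval of -0.55 to 0.11 (adjusted p = 0.66).

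The drop against the mean of both controls, -0.68 ± 0.14 (adjusted p = 0.0189), therefore averages a large and a small difference. It was lost without EHF IKO replicate 1 (adjusted p = 0.0638), without EHF IKO replicate 3 (adjusted p = 0.086), without Control-OIL 3 and 4 together (adjusted p = 0.053) and with the stromal score as a covariate (adjusted p = 0.26), while the log2 value stayed between -0.76 and -0.48 in all 24 alternatives. The difference between the controls was lost in 17 of 25 alternatives; of the 12 fits that left out 1 library, it held in those without Control-OIL replicate 2, Control-TMX replicate 4 or EHF IKO replicate 4.

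**Figure D2:**
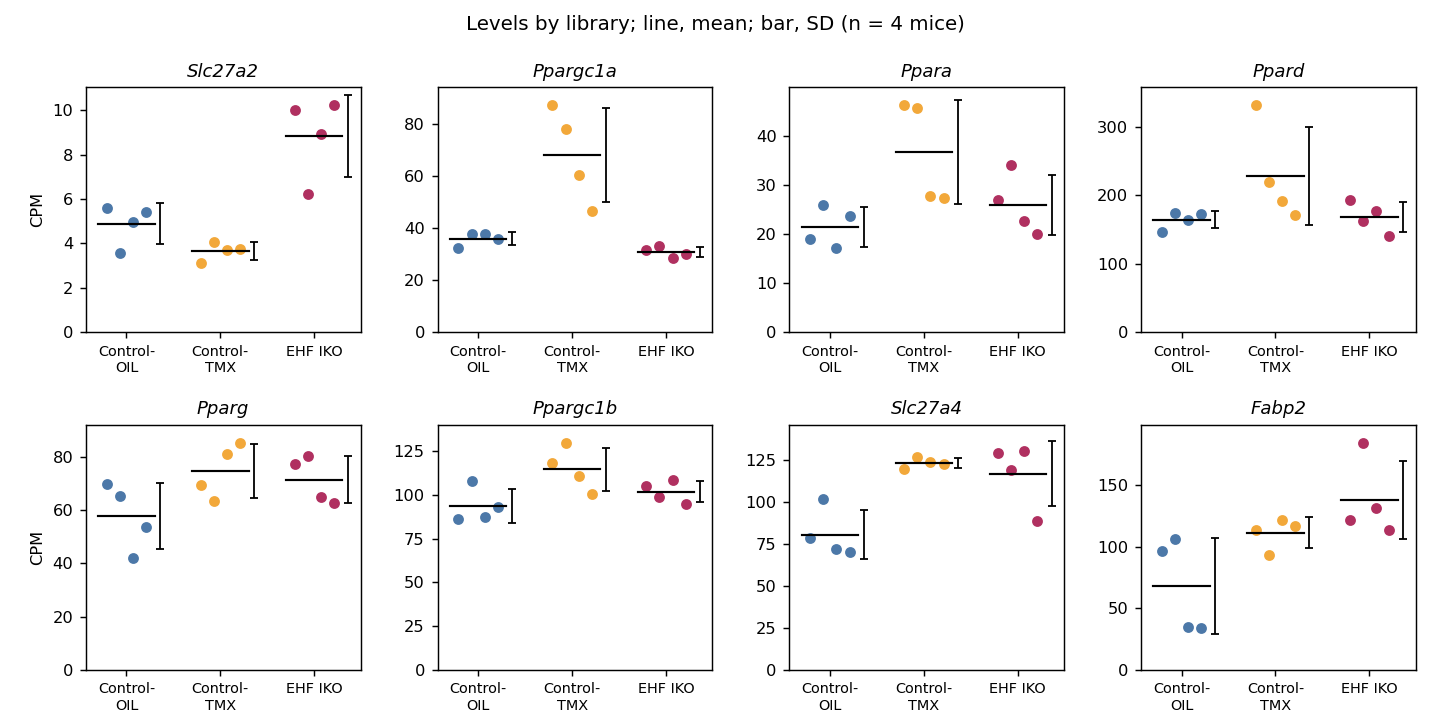
CPM (vertical axis, from 0) of 8 genes in each library by group; points are libraries in replicate order, lines the group means and bars the SD of 4 mice. Slc27a2 is higher in the 4 EHF IKO libraries (6.21 to 10.2 CPM) than in all controls, and Ppargc1a is high in Control-TMX alone (46.7 to 87.0 CPM).

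The 5 factors and coactivators shared the position of Control-TMX as the highest group by mean. All 5 of 5 had a higher fitted level in Control-TMX than in Control-OIL, with a median log2 difference of 0.47 (all genes tested, -0.01), and all 5 had a lower one in EHF IKO than in Control-TMX, with a median of -0.44 (all genes, 0.02). Only Ppargc1a among them passed the test in either comparison, and both comparisons rest on the same 4 Control-TMX libraries.

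Ppara was at 18.9, 25.9, 17.2 and 23.6 CPM in Control-OIL, at 46.1, 45.6, 27.8 and 27.4 in Control-TMX, and at 26.9, 34.0, 22.6 and 20.01 in EHF IKO. All Control-TMX libraries were above all Control-OIL libraries, by a log2 difference of 0.77 ± 0.21 (edgeR adjusted p = 0.183), and EHF IKO overlapped both. Ppard was at 146.99, 175, 165 and 172 CPM in Control-OIL, at 332, 220, 191 and 171 in Control-TMX, and at 193, 163, 178 and 140 in EHF IKO. Control-TMX 1 was the highest library, and all 3 groups overlapped.

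Pparg was at 69.9, 65.2, 42.2 and 53.6 CPM in Control-OIL, at 69.4, 63.3, 81.1 and 85.2 in Control-TMX, and at 77.5, 80.3, 64.9 and 62.7 in EHF IKO, with all groups overlapping. Its log2 difference from Control-OIL was 0.31 ± 0.15 in EHF IKO (adjusted p = 0.439) and 0.38 ± 0.15 in Control-TMX (adjusted p = 0.313). Ppargc1b was at 86.5, 107.8, 87.4 and 93.0 CPM in Control-OIL, at 118, 129.6, 111 and 101 in Control-TMX, and at 105, 99.0, 108.7 and 95.1 in EHF IKO. Its log2 differences of EHF IKO stayed within 0.17 of each control, at 0.12 ± 0.10 against Control-OIL and -0.17 ± 0.10 against Control-TMX.

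Clock genes moved with the Control-TMX libraries. A clock score, the mean log2 level of 5 genes of the Arntl phase minus that of 8 tested genes of the Dbp phase, was -2.77 and -2.82 in Control-TMX 1 and 2 and 0.05 and 0.71 in Control-TMX 3 and 4. It ran from -1.04 to 1.61 in Control-OIL and from 0.28 to 1.30 in EHF IKO. Control-TMX 1 and 2 were also the highest libraries for Ppargc1a, Ppara, Ppard and Ucp2, as the plot of these 4 genes beside the clock score shows.

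For Ppargc1a, Control-TMX 3 and 4 were lower than Control-TMX 1 and 2, at 60.5 and 46.7 CPM. They were still above all 8 libraries of the other groups, and their clock scores were inside the range of those groups. Without Control-TMX 1 and 2 its log2 difference of EHF IKO from Control-TMX was -0.80 (edgeR adjusted p = 0.0285), and with the clock score as a covariate -0.80 (adjusted p = 0.00842). Between the controls, the difference without those 2 libraries was 0.58 (adjusted p = 0.56) and with the covariate 0.64 (adjusted p = 0.0877). For Ppara the difference of EHF IKO from Control-TMX went from -0.50 to -0.10 without those 2 libraries. Slc27a2 against Control-TMX was 1.24 without them, with an adjusted p of 0.131 and 2 libraries left in that group. The part of the clock genes in the Ppargc1a, Ppara and Ppard values was not tested further.

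**Figure D3:**
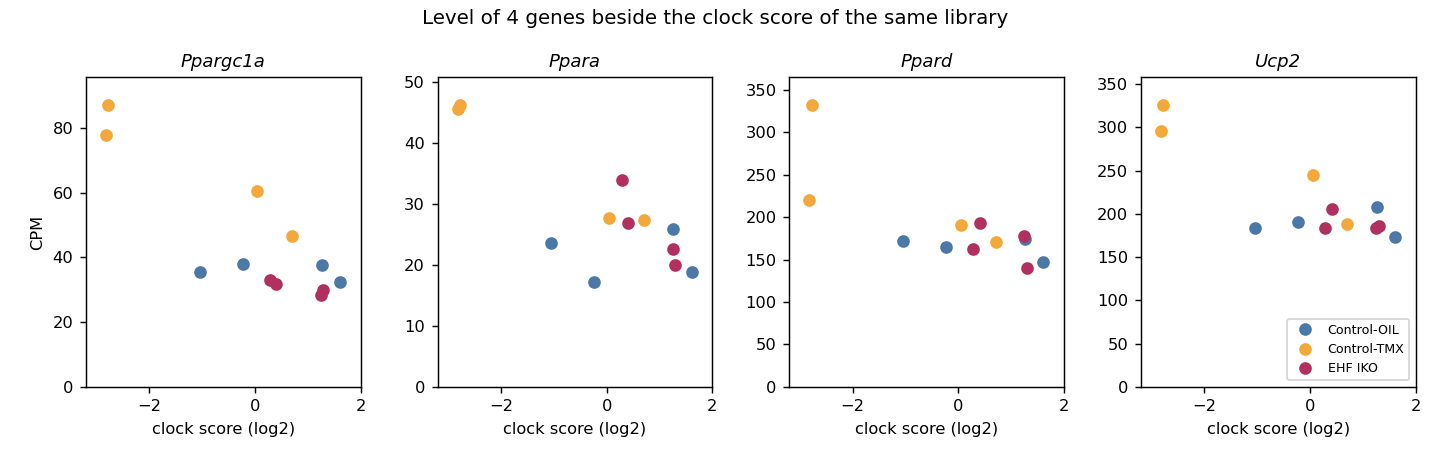
CPM (vertical axes, from 0) of Ppargc1a, Ppara, Ppard and Ucp2 against the clock score of the same library (horizontal axis, log2 units), 12 libraries coloured by group. Control-TMX 1 and 2 lie apart at clock scores of -2.77 and -2.82 and hold the highest levels, and Control-TMX 3 and 4 stay above the other groups for Ppargc1a only.

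Genes of uptake, binding and activation came next. Of 8 tested, 7 were higher than in Control-OIL with a median log2 difference of 0.60 (all genes, -0.01), and 6 were higher than in Control-TMX with a median of 0.39 (all genes, 0.02). Only Slc27a2 was called.

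Slc27a4, a second fatty acid transport protein of the gut, was at 78.4, 101.6, 71.8 and 70.1 CPM in Control-OIL, at 119.8, 127, 124 and 122 in Control-TMX, and at 129, 119, 130.1 and 88.8 in EHF IKO. Both tamoxifen-treated groups were higher than Control-OIL by mean, with EHF IKO 4 inside the Control-OIL range. Its log2 difference was 0.54 ± 0.13 for EHF IKO against Control-OIL (edgeR adjusted p = 0.0555), 0.61 ± 0.13 for Control-TMX against Control-OIL (adjusted p = 0.114) and -0.08 ± 0.13 between EHF IKO and Control-TMX (95% interval -0.36 to 0.20). The first of these passed the test in 6 of 25 alternatives, among them the fits without Control-OIL replicate 2 and without EHF IKO replicate 4.

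Fabp2 was at 96.4, 106.6, 34.4 and 34.3 CPM in Control-OIL, at 113.2, 92.9, 122 and 117 in Control-TMX, and at 121, 184, 131 and 114 in EHF IKO. EHF IKO was above all of Control-OIL, in which libraries 3 and 4 were far below 1 and 2. Its log2 difference of 1.02 ± 0.35 against Control-OIL did not pass (edgeR adjusted p = 0.218), nor did 0.31 ± 0.34 against Control-TMX (adjusted p = 0.787).

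Acsl5, an acyl-CoA synthetase of enterocytes, was at 72.7, 73.7, 84.7 and 62.6 CPM in Control-OIL, at 57.3, 52.2, 62.4 and 74.1 in Control-TMX, and at 76.8, 83.6, 82.5 and 96.4 in EHF IKO. EHF IKO was above all of Control-TMX, by a log2 value of 0.46 ± 0.12 (adjusted p = 0.11), and overlapped Control-OIL (0.21 ± 0.12). Without Control-TMX replicate 4 the first value was 0.57 and passed the test (adjusted p = 0.0442).

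Acot1, a cytosolic thioesterase, was also above all of Control-TMX in EHF IKO, at 3.33 to 5.24 against 1.55 to 3.28 CPM, with a log2 difference of 0.61 ± 0.28 (adjusted p = 0.414). Acot1 and its mitochondrial neighbour Acot2 are close copies, and reads that map to both were not counted. Acsl1 and Acot2 stayed within 0.31 of both controls on the log2 scale.

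The carnitine shuttle and the mitochondrial cycle differed little. Of the 3 shuttle genes, Cpt1a, Cpt2 and the carrier Slc25a20, the log2 differences of EHF IKO ran from 0.01 to 0.27 against Control-OIL and from -0.16 to 0.25 against Control-TMX, and none was called. The 13 enzymes and electron carriers of mitochondrial oxidation ran from -0.15 to 0.27 against Control-OIL and from -0.18 to 0.26 against Control-TMX, with medians of 0.16 and 0.05.

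For all 13, the 95% interval of the EHF IKO difference lay within 1.5-fold in either direction against each control. That holds for 22 of the 36 genes of the set against each control, beside 50.2% and 49.6% of all genes. A change in these 13 enzymes as large as that of Slc27a2 was therefore outside the intervals of the fit.

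Acads was at 146.6, 140.6, 116 and 97.0 CPM in Control-OIL, at 143.5, 149, 150.3 and 156 in Control-TMX, and at 145, 117, 163 and 177 in EHF IKO. Acaa2 was at 86.6, 76.7, 44.5 and 47.3 CPM in Control-OIL, at 63.8, 75.1, 84.0 and 89.3 in Control-TMX, and at 63.2, 68.2, 75.7 and 78.4 in EHF IKO. Acadl was at 85.8, 72.0, 77.8 and 85.4 CPM in Control-OIL, at 83.4, 74.2, 75.0 and 72.4 in Control-TMX, and at 85.1, 99.2, 98.7 and 82.5 in EHF IKO. All 3 groups overlapped for each of these enzymes.

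Acadl had the largest value of the 13 against Control-TMX, 0.26 ± 0.10 (edgeR adjusted p = 0.292). Some of these counts are partial, since reads in exons shared with another gene were left out: Dvl2 covers 42.9% of the exonic bases of Acadvl, the very-long-chain dehydrogenase, and other genes cover 58.2% of those of Etfb, an electron carrier subunit.

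**Figure D4:**
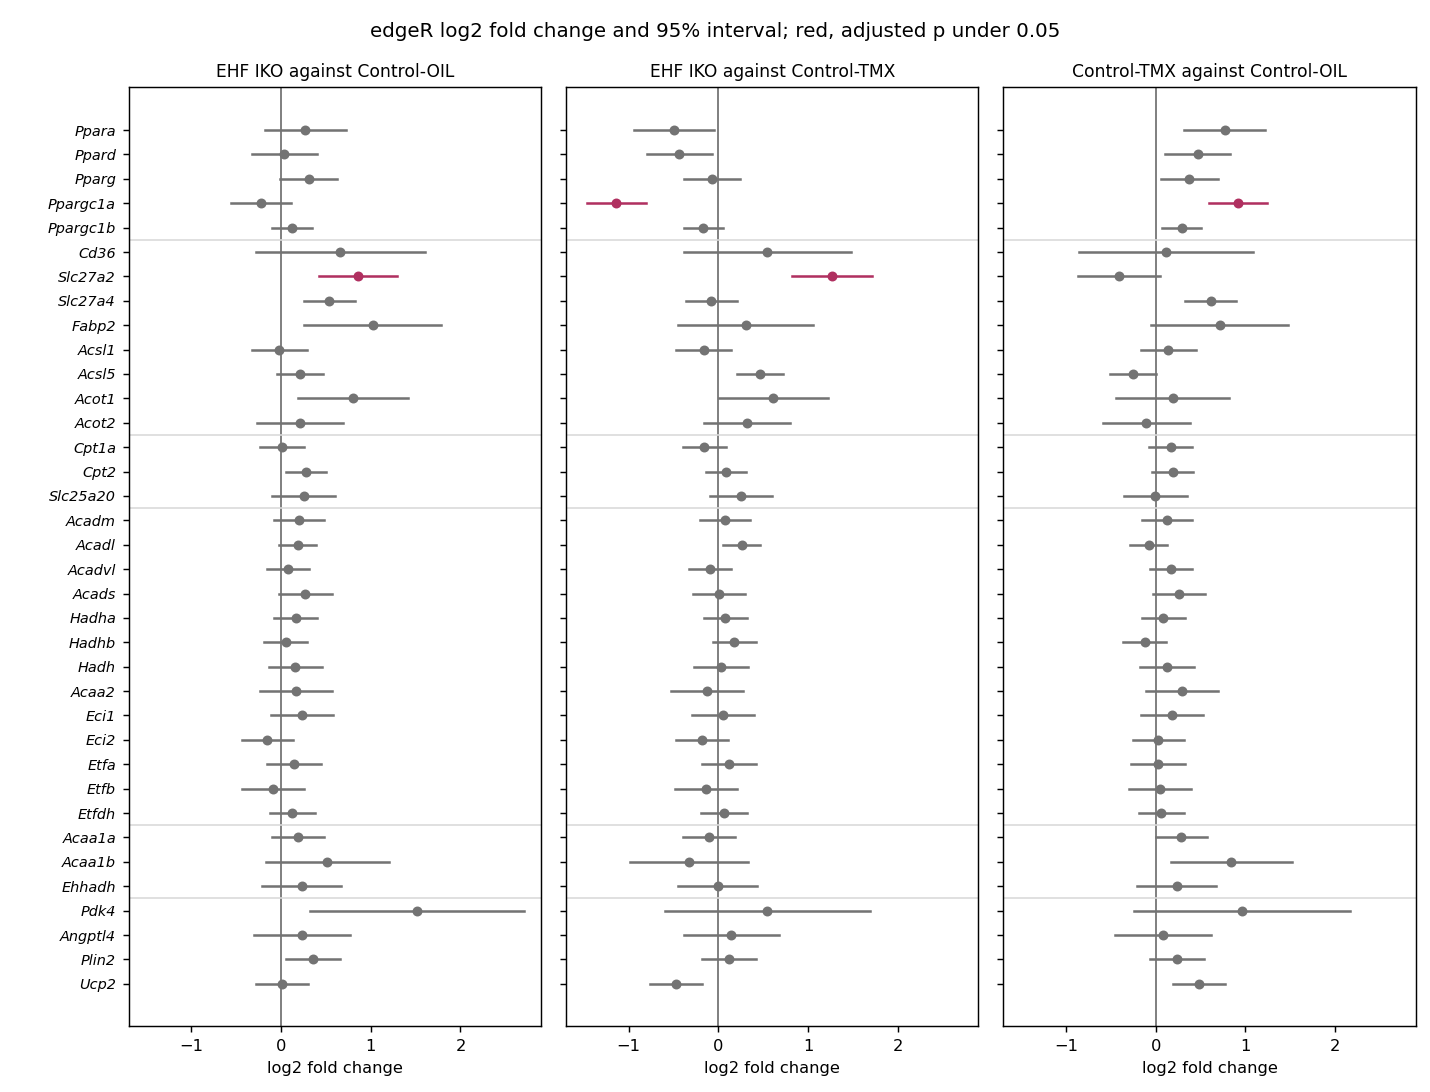
edgeR log2 fold change (horizontal axis) with its 95% interval for the 36 tested genes (vertical axis, by role) in 3 comparisons; red marks an adjusted p under 0.05. Slc27a2 is called against both controls, Ppargc1a is negative against Control-TMX (-1.14) and positive between the controls (0.92), and the 13 mitochondrial enzymes lie between -0.18 and 0.30 in the panels.

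The peroxisomal genes Acaa1a, Acaa1b and Ehhadh, of which the first pair encodes thiolases and the last a bifunctional enzyme, were not called in any comparison. Acaa1b was at 6.15, 6.75, 5.86 and 5.23 CPM in Control-OIL, at 11.8, 13.6, 7.84 and 10.004 in Control-TMX, and at 11.997, 12.8, 5.85 and 3.49 in EHF IKO. Control-TMX was above all of Control-OIL (log2 difference 0.84 ± 0.32, edgeR adjusted p = 0.303), while EHF IKO spanned both. Acaa1a and Acaa1b are near copies counted by their unique reads.

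Of the other targets, Ucp2, a carrier of the inner mitochondrial membrane, was at 173, 207, 191 and 184 CPM in Control-OIL, at 325, 296, 245 and 188 in Control-TMX, and at 205, 184, 184 and 186 in EHF IKO. It was lower in EHF IKO than in Control-TMX by a log2 value of -0.47 ± 0.14 that did not pass (edgeR adjusted p = 0.151), with Control-TMX 4 inside the range of the other groups. Without Control-TMX replicate 4 it was -0.60 and passed (adjusted p = 0.0228).

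Pdk4, which inhibits pyruvate dehydrogenase, had the largest fitted difference of the set against Control-OIL, 1.51 ± 0.54 (edgeR adjusted p = 0.253). It was at 7.55, 15.3, 1.66 and 5.43 CPM in Control-OIL, at 17.7, 15.2, 14.7 and 11.6 in Control-TMX, and at 21.8, 36.9, 20.1 and 7.39 in EHF IKO, so that a wide spread between mice of 1 group went with it. Plin2, a lipid droplet coat protein, differed by 0.36 ± 0.14 from Control-OIL (adjusted p = 0.302), and Angptl4, an inhibitor of lipoprotein lipase, by 0.23 ± 0.25 (adjusted p = 0.83).

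Over the whole set, 32 of 36 genes were fitted higher in EHF IKO than in Control-OIL, with a median log2 difference of 0.20, beside 48.7% of all genes and a median of -0.01. Control-TMX gave a like count against Control-OIL, 30 of 36 with a median of 0.18 (48.5% of all genes, median -0.01). Against Control-TMX, 20 of 36 were higher in EHF IKO, with a median of 0.04 (52.6%, median 0.02). Genes of one pathway in the same libraries are not independent, and no test was made of these counts. Markers of differentiated colonocytes lay the same way: 18 of 20 were higher in EHF IKO than in Control-OIL (median 0.29), 16 of 20 in Control-TMX than in Control-OIL (median 0.39), and 9 of 20 in EHF IKO than in Control-TMX (median -0.06). Of 11 markers of stem and proliferating cells, 7 were lower in EHF IKO and 11 in Control-TMX than in Control-OIL. Against Control-TMX, 9 of the 11 were higher in EHF IKO (median 0.34). Stromal markers also lay above Control-OIL: 15 of 16 in EHF IKO (median 0.73) and 16 of 16 in Control-TMX (median 0.47). So did 7 of 8 smooth muscle markers in each, with medians of 0.70 and 1.03. Against Control-TMX, 14 of 16 stromal and 3 of 8 smooth muscle markers were higher in EHF IKO. Of 9 distal colon genes, 1 lay above Control-OIL in EHF IKO and 2 in Control-TMX. The part of any of these cells in the shift was not tested.

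The Control-OIL mice differed among themselves across the set. In 21 of the 36 genes, libraries 1 and 2 were both above libraries 3 and 4, beside 20.6% of all genes tested, and in 1, Plin2, both were below (20.2% of all genes). The 21 included Pparg, Slc27a4, Fabp2, Cpt1a, Cpt2, Ehhadh, Pdk4 and 11 of the 13 mitochondrial genes, where Acadl and Etfb were the exceptions. In Control-TMX 11 genes had libraries 1 and 2 above and 11 below (26.2% and 26.7% of all genes), and in EHF IKO 11 and 8 (26.6% and 26.3%).

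Control-OIL 3 and 4 had the lowest colon region scores of the 12 libraries, -0.76 and -0.49, against 0.52 and 0.24 in Control-OIL 1 and 2, where the score is the mean log2 level of 13 proximal colon genes minus that of 9 distal ones. They also differed from Control-OIL 1 and 2 in Xist and Y-linked genes, as replicates 3 and 4 did in every group. The part of colon region, of sex or of the 2 mice in these levels cannot be told apart here.

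Without Control-OIL 3 and 4, 21 of 37 tested genes were higher in EHF IKO than in Control-OIL, with a median of 0.06, and 17 of 37 were higher in Control-TMX, with a median of -0.03. The shift of the set above Control-OIL was thus smaller without those 2 libraries. They were chosen after they were seen to be low in the set, so a smaller shift was likely in advance. Both libraries left in Control-OIL were high in Xist, while the other groups also held libraries with Y-linked counts. In the fit without Control-OIL 3 and 4, Slc27a2 was 0.96 higher than Control-OIL (edgeR adjusted p = 0.192, with 2 libraries left in the group). Fabp2, Ehhadh, Acaa2 and Pdk4 are among the members whose low values in Control-OIL 3 and 4 are plain in the heat map.

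**Figure D5:**
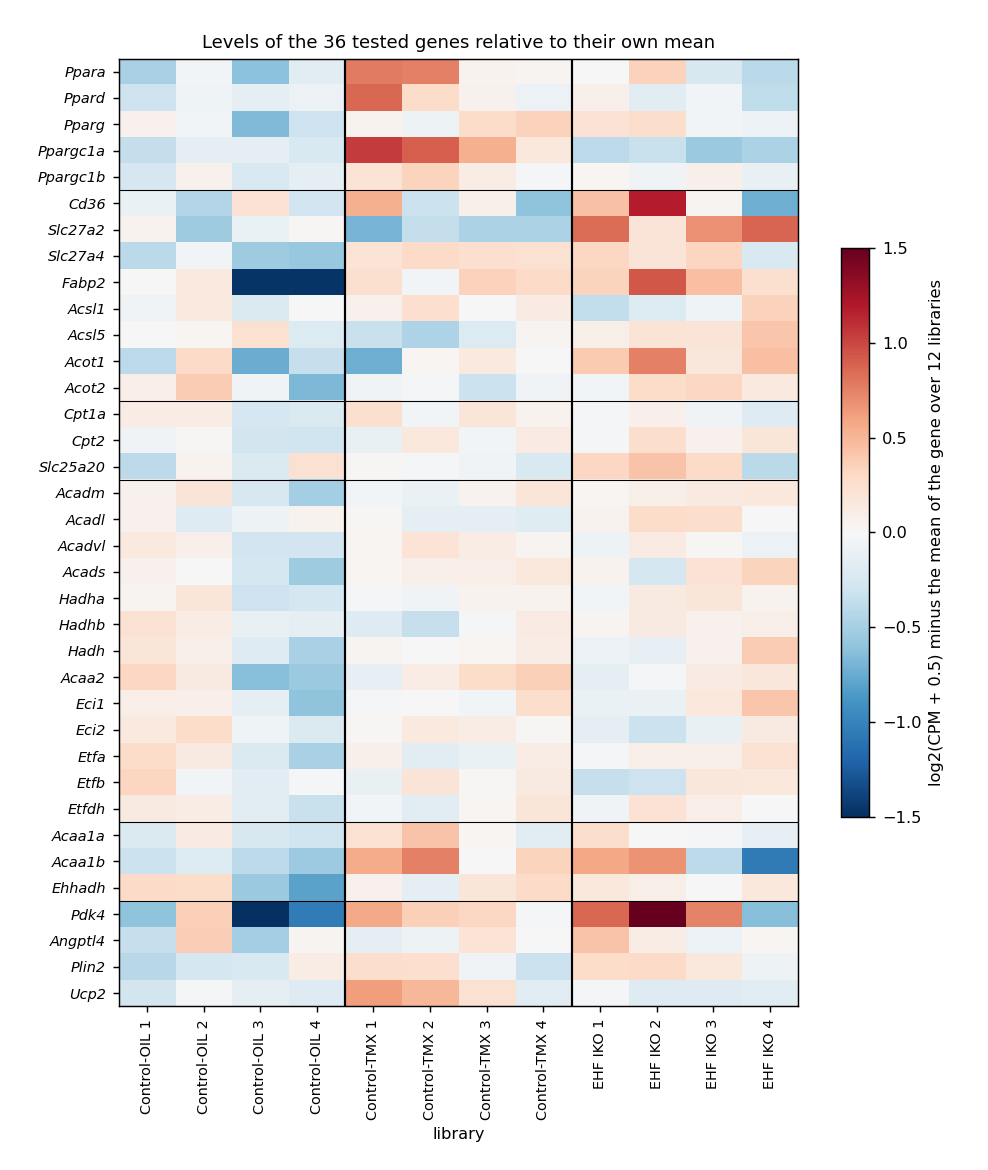
Level of the 36 tested genes (rows, by role) in 12 libraries (columns), as log2(CPM + 0.5) minus the mean of the gene, on a colour scale from -1.5 (blue) to 1.5 (red). Control-OIL 3 and 4 are low in most rows, Control-TMX 1 and 2 are high for Ppara, Ppard, Ppargc1a and Ucp2, and Slc27a2 is high in EHF IKO.

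Promoter sequence was read to see which members carry the element that PPARs bind, a direct repeat of the half-site AGGTCA with 1 base between, AGGTCANAGGTCA. RefSeq windows (GRCm38.p6) of 250 bases before the start site were matched by symbol for 34 of the 38 genes, with 37 windows in all, and compared with 32851 windows of all genes, on both strands. No member held the exact repeat (0.0335% of all windows). With at most 2 mismatches over both half-sites it was in 4 member windows, 10.8% of them, beside 3.24% of all windows. These 4 are shown because theirs are the member windows that held this inexact repeat. They are printed on the strand of the gene, with the repeat in capitals as its reverse complement. The line for Slc27a2 shows its single half-site, in capitals, at -220 to -215 from the start, because Slc27a2 was called against both controls.
Fabp1: acaatcacTGACCTATGGCCTatatctgag
Cd36: tggttctcTGGCCTCTGACTTacttggatg
Plin2: agctttcaGGACCCCTGACCTaagtcagac
Etfa: gcacacccTTACCTTTGCCCTactcccaag
Slc27a2: gcaccacgccttTGACCTtttcaacgtggg

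The Fabp1 match had 1 mismatch and lies at -67 to -55 from the start (printed window chr6:71199804-71199833, plus strand). Fabp1 had at most 23 counts over a group. The matches of Cd36 (chr5:17835938-17835967, minus strand), Plin2 (chr4:86670263-86670292, minus strand) and Etfa (chr9:55512299-55512328, minus strand) had 2 mismatches each, and none of these genes was called. The Slc27a2 window (chr2:126552792-126552821, plus strand) lies within an exon of a longer Ensembl transcript model. The half-site alone, which overlaps the repeat, was in 9 windows of 8 members, 24.3% beside 14.0% of all windows. The ETS core GGAA followed by G, GGAAG, was in 20 member windows, 54.1% beside 64.1% of all. It was in neither the Slc27a2 nor the Ppargc1a window. GGAA without that G was not counted, and the Ppargc1a window printed below holds it. A match is a description of letters and not a measured binding site.

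Ppargc1a had the smallest edgeR p of the members in any comparison, and its promoter is known for a cAMP response element. The 249 bases upstream of its start are therefore shown (chr5:51567727-51567975, minus strand). Capitals mark the half-site TGACG, read on the opposite strand, which was in 8 member windows, 21.6% beside 17.8% of all windows. This motif was added after the values were seen.
Ppargc1a: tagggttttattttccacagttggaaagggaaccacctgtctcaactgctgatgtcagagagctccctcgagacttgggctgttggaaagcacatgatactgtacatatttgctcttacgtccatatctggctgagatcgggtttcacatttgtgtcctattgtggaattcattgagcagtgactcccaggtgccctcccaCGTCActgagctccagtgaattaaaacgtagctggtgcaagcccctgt

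Other genes of the pathway gave a wider view. Of 160 further genes in 5 lists, 121 were tested, and against the mean of both controls 2 rose and 5 fell in EHF IKO, with 60 higher and 61 lower and a median log2 difference of -0.00416 (all genes, 0.01). Against Control-OIL 2 rose and 5 fell, against Control-TMX 1 rose and 2 fell. Of all genes tested, 1.72% were called against the mean, 1.68% against Control-OIL and 0.800% against Control-TMX. Between the controls edgeR called none, with 19 of 121 at an unadjusted p under 0.05 (12.9% of all genes tested), DESeq2 called 2 (Lpin3 and Sult2b1, both higher in Control-TMX) and limma-voom none.

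These calls shared the limits of those above. With the stromal score as a covariate none of the 121 was called against Control-OIL or the mean of both controls, and 2, Acss1 and Gpd1, were called against Control-TMX. Leaving out single libraries gave 1 to 17 calls against Control-OIL, 0 to 4 against Control-TMX and 1 to 14 against the mean, with the highest counts without EHF IKO replicate 4 and the lowest without EHF IKO replicates 1, 3 and 2 and, against Control-TMX, also without Control-TMX replicate 3. Acss1 was called against Control-OIL in each of the 12 fits, and leaving out Control-OIL 3 and 4 gave 1, Acss1, against Control-OIL.

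Acss1, the mitochondrial enzyme that activates acetate, had the smallest p of these. It was at 108.1, 108.1, 83.4 and 69.5 CPM in Control-OIL, at 76.1, 88.0, 92.4 and 89.2 in Control-TMX, and at 51.2, 53.8, 52.1 and 52.1 in EHF IKO. All EHF IKO libraries were below all 8 controls, and Acss1 fell by 0.77 on the log2 scale against their mean (log2 fold change -0.77 ± 0.11, edgeR adjusted p = 0.00238).

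Among other oxidation genes, Acox2, a peroxisomal oxidase of branched chains, was at 4.03 to 8.69 CPM in EHF IKO and at 1.78 to 3.95 in the controls, and rose by 1.03 ± 0.23 (edgeR adjusted p = 0.0312). Crot, a peroxisomal carnitine transferase, rose by 0.49 ± 0.10 (adjusted p = 0.0182), from 26.6 to 37.9 CPM in the controls to 40.2 to 47.6. Eci3, an enoyl-CoA isomerase, was at 2.21 to 2.82 CPM in EHF IKO and at 3.42 to 6.15 in the controls, with a log2 fold change of -0.99 ± 0.21 (adjusted p = 0.0229).

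Of the other target genes, Gpd1, a cytosolic glycerol-3-phosphate dehydrogenase, had a log2 fold change of -0.64 ± 0.14 (adjusted p = 0.0288) against the mean of both controls. Fabp6, the ileal bile acid binding protein, had one of -1.98 ± 0.47 (adjusted p = 0.0451), from levels of 1.38 to 7.39 CPM in the controls and 0.233 to 0.966 in EHF IKO. Lpin1, a phosphatidate phosphatase of lipid synthesis, had one of -0.83 ± 0.18 (adjusted p = 0.029). The 19 tested partner receptors, coactivators, corepressors and other nuclear factors held no called gene in the reported edgeR fit or in DESeq2. In the edgeR fit 1 had an unadjusted p under 0.05 against the mean of both controls. Other edgeR settings called Pprc1 or Creb3l3 among the pathway genes. Pprc1 was called with no filter and without EHF IKO replicate 4, and Creb3l3 with the clock score, all against Control-OIL.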

How the data were processed

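RNA-seq of colonic epithelium from 12 mice was used as 12 samples. Each deposited file holds 1 library's raw gene counts, which featureCounts (Subread 1.6.1) took over Ensembl GRCm38 release 98 exons, unstranded and without reads in more than 1 gene or place, per the file headers. The aligner was STAR, per the submitters' processing notes.

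Counts were tested in edgeR 4.0.16 (R 4.3.3): TMM factors, the filterByExpr filter, 1 robust quasi-likelihood fit of 12 libraries (9 residual degrees of freedom), 4 contrasts, and Benjamini-Hochberg adjustment over 15743 genes. SE is the log2 fold change over the root of the F statistic. The fit was tested on simulated data. CPM is TMM-scaled, and CPM per kb divides by the deposited exon length. Nothing in the labels says whether mice shared litters, so p-values measure the spread between these samples.

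The members and lists were chosen with earlier results of these data known. Library values were given for factors, called members, those of smallest p and those of highest or lowest CPM per kb; Pdk4, Acot1 and Acaa1b were added after their values were seen. Alternatives were DESeq2 1.42.0, limma-voom 3.58.1, other filters and size factors, a replicate block, marker scores as covariates and leaving out libraries.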

Additional observations from a re-analysis of the deposited data

Results flagged for a closer look

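Within the 4 mice of a group, 4 of 114 gene and group combinations held a library far from the other 3 by Dixon's test, and chance alone gives about 1 in 20. Acot2 in Control-TMX 3 was at 4.03 CPM, with the others at 4.96 to 5.07. Eci1 in Control-TMX 4 was at 28.5 CPM, with the others at 23.1 to 23.9. Acaa1a in Control-OIL 2 was at 91.2 CPM, with the others at 67.9 to 71.8. Ucp2 in EHF IKO 1 was at 205 CPM, with the others at 184 to 186. None of these 4 genes was called in any comparison.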

How the results depend on the processing

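No member that was called, in the reported fit or an alternative, changed sign. No setting moved the median of all genes by more than 0.05 (log2). The median of the set moved more. Against Control-TMX, 0.04 as reported with 20 of 36 higher, it was -0.11 with the clock score (12 of 36 higher). With the colon region score it was -0.02 (17 of 36). Against Control-OIL, 0.20 as reported, it was 0.19 and 0.15 with these 2 scores. The number of members called against Control-OIL, 1 as reported, was 2 with no filter, 2 in DESeq2, 0 in limma-voom, 0 with the replicate block, 0 with the stromal score, 3 with the clock score, 2 with the sex marker score, 0 with only the libraries compared, and 0 to 1 leaving out each library in turn. Against Control-TMX, 2 as reported, it was 5 with no filter and 2 to 4 leaving out each library, and DESeq2 also called Acsl5. Against the mean of both controls, 2 as reported, it was 0 with the stromal score and 1 to 2 leaving out each library. Plin2 was also called there with the clock score (edgeR adjusted p = 0.0122). Between the controls, 1 as reported, it was 6 with no filter, 3 in DESeq2, 0 with a mean log2 CPM of at least 1, 0 in limma-voom, 0 with the replicate block, 0 with the stromal score, 0 with the clock score, 0 with only the libraries compared, and 0 to 2 leaving out each library. Leaving out Control-TMX 1 and 2, chosen after seeing the data, gave 0 against Control-OIL, 1 against Control-TMX and 0 between the controls. Leaving out Control-OIL 3 and 4, chosen likewise, gave 0 against Control-OIL, 1 against the mean and 0 between the controls. Fewer libraries or genes entered several of these fits; the cause of the other shifts was not tested.

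Ppargc1a against Control-TMX was called in 25 of 25 alternatives (adjusted p 1.9e-14 to 0.0285) and Slc27a2 in 24 of 25 (3.03e-05 to 0.131). The 265 genes called against Control-OIL became 534 in DESeq2, 724 with no filter, 173 with the replicate block, 15 with the stromal score, 471 with the clock score, 92 without Control-OIL 3 and 4, and 104 to 711 leaving out each library; with only the libraries compared 0.740% of genes were called. The 126 against Control-TMX became 305 in DESeq2, 500 with no filter, 72 with the block, 67 with the stromal score, 81 with the clock score, 209 with the colon region score, 28 without Control-TMX 1 and 2, and 50 to 162 leaving out each library. The 270 against the mean became 471 in DESeq2, 831 with no filter, 148 with the block, 44 with the stromal score, and 108 to 522 leaving out each library, with 0.886% of genes called without Control-TMX 1 and 2. The 13 between the controls became 197 in DESeq2, 441 with no filter, 5 with a mean log2 CPM of at least 1, 8 in limma-voom, 8 with the clock score, 8 without Control-OIL 3 and 4, 0 with the stromal score, 32 with the colon region score, 38 with the sex marker score, 1 without Control-TMX 1 and 2, and 3 to 67 leaving out each library. The highest of each of these 4 ranges came without EHF IKO replicate 4. Whether the replicate numbers pair the mice is not stated. Deviations of same-numbered libraries correlated at -0.467 to 0.478, with 6 of 12 pairs over 0.1. Only 1 library correlated best with its own number in both other groups. These correlations cannot exclude a pairing, and replicates 1 and 2 differed from 3 and 4 in Xist and Y-linked genes in every group. With the block, Slc27a2 against Control-OIL had an adjusted p of 0.0789 and Ppargc1a between the controls 0.0521. Of the 121 other pathway genes, those called with the block were 2 against Control-OIL (Acss1 and Fabp6), 1 against Control-TMX (Acss1) and 1 against the mean of both controls (Acss1); Acox2, Crot, Eci3, Gpd1, Fabp6 and Lpin1 were not called against the mean.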
